A study of Oryza sativa and Arabidopsis thaliana with 24 samples.

Results

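These fragments are 5' pieces of cytosolic tRNAs that end at or after the first anticodon base, are encoded with an A at that base and were read with a G. They were taken from deposited tables of individual tRNA-derived fragments in Arabidopsis thaliana and rice (Oryza sativa), classed there as tRF-5 (5 of the rows used) or as the longer 5' class that is cut in the anticodon loop (9 rows). A fragment was kept when it was no exact part of any listed tRNA but matched the 5' end of one without gaps and with exactly 1 mismatch, the first anticodon base, base 34 from the 5' end, being A in the tRNA and G in the fragment. That gave 14 of 8620 listed fragments, 8 of 5826 in Arabidopsis and 6 of 2794 in rice. The rule used the letters only, not the read numbers. All 14 passed the filter of a mean of 1 RPM.

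Each group had 2 libraries, labelled as replicates, and there were 24 libraries in 12 groups. The Arabidopsis groups were flower, silique, stem, stem leaf and rosette leaf of soil-grown plants at 23 °C, none of them treated. The rice groups were root cold, root salt, root control, shoot cold, shoot salt, shoot control and panicle. Rice grew at 28 °C in nutrient solution, cold was 4 °C for 8 h and salt was 300 mM NaCl for 8 h. All RNA was pretreated with a kit made for tRNA-derived fragments before small-RNA libraries were built. The tables hold tRNA fragments, so the organ labels could not be checked against marker genes, and nothing says whether replicates came from separate plants; p-values then measure the spread between these libraries.

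In the tRNAs of plants, as of other eukaryotes, an A at the first anticodon position (the wobble base) is commonly deaminated to inosine, which lets 1 tRNA read several codons. In Arabidopsis the cytosolic reaction needs the adenosine deaminases TAD2 and TAD3, and a separate enzyme, TADA, acts on the plastid tRNA-Arg(ACG). Inosine pairs with C, so reverse transcriptase reads it as G. A G read at an encoded A is therefore the known sequencing sign of this modification, but sequencing alone does not identify the base. Fragments of the 5' side are made when tRNAs are cleaved, and cuts in the anticodon loop give long ones.

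The fragments come from 2 families, tRNA-Ala(AGC) in both species and tRNA-Ser(AGA) in Arabidopsis. The tRNAs that carry most of them are shown whole, with the first anticodon base in capitals.

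at_tR1, Arabidopsis tRNA-Ala(AGC): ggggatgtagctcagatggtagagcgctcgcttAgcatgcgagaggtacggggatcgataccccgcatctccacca

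at_tR160, Arabidopsis tRNA-Ser(AGA): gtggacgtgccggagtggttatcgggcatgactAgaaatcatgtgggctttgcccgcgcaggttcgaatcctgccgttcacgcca

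The main fragments follow, 5' to 3', with the base that differs from the tRNA in capitals. All 14 carry the change A34G, where positions count from 1 at the 5' end. The first 3 sequences were listed in both species with the same letters, so that the 14 rows hold 11 distinct sequences. They differ from each other only in where they end. The rice os_tR2 and Arabidopsis at_tR2 sequences show the minor Ala genes, and the Ser sequence is the longest fragment of the set.

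34-nt Ala fragment (Arabidopsis at_tR1 and at_tR3, rice os_tR1 and os_tR3): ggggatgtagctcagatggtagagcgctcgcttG

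35-nt Ala fragment (the same tRNAs): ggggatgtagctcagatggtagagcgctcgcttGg

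36-nt Ala fragment (the same tRNAs): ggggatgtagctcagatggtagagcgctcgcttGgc

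35-nt Ala fragment of Arabidopsis at_tR2: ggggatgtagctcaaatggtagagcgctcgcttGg

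35-nt Ala fragment of rice os_tR2: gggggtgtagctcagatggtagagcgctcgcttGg

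40-nt Ser fragment (Arabidopsis at_tR160, at_tR161 and at_tR169): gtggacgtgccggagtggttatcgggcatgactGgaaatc

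The exact counterparts, with the encoded A in capitals, were listed in Arabidopsis at 34 and 36 nt and not at 35 nt.

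Exact 34-nt Ala fragment: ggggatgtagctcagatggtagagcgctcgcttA

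Exact 36-nt Ala fragment: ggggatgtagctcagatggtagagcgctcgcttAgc

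The genome encodes A at this base in every Arabidopsis source gene. The 6 source tRNAs have 39 listed loci in the TAIR10 build (RefSeq copy), 16 of Ala and 23 of Ser. The genome sequence equalled the listed tRNA at 39 of 39 loci, held A at base 34 at 39 of 39, and each locus is annotated as a tRNA gene. The Ala loci lie on all of chromosomes 1 to 5, with 6 on chromosome 5, while 20 of the Ser loci lie on chromosome 1. The single at_tR2 locus is chr2:13137236-13137308 on the minus strand. The letters of the 8 Arabidopsis fragments had 0 exact matches in the genome, whereas the same letters with A had 15 matches for the at_tR1 and at_tR3 fragments, 1 for at_tR2 and 23 for Ser. The nearest tRNA with G as first anticodon base differed from the fragments at 9 to 16 positions. Both fragments of at_tR2 also align with 1 mismatch (T34G) to a tRNA-Ala(TGC), so their source is less certain. No rice genome was used, and rice sources rest on the listed tRNA sequences.

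Reads of the fragments were few among all listed reads. The 8 Arabidopsis fragments held 7500 reads, 0.159% of listed reads and 4.70% of the 159514 reads of 5' fragments with 1 mismatch. The 6 rice fragments held 19164 reads, 0.584% of listed reads and 8.50% of 225525. In Arabidopsis the 35-nt and 36-nt fragments of at_tR1 and at_tR3 led with 3423 and 2917 reads, followed by their 34-nt form with 541, the 40-nt Ser fragment with 303, the at_tR2 forms of 36 and 35 nt with 136 and 133, and the Ser forms of 35 and 36 nt with 30 and 17. In rice the 34-nt form led with 9729 reads, before the 35-nt form with 6673 and the 36-nt form with 2521, while the os_tR2 forms of 34, 35 and 36 nt held 95, 92 and 54. Summed over all libraries of a species, the most abundant end thus differed, although the 3 sequences are the same. By group mean, the 35-nt form led in Arabidopsis flower, silique and stem leaf and in rice panicle. The 36-nt form led in Arabidopsis stem and rosette leaf, and the 34-nt form in every rice root and shoot group. Species cannot be told apart here from organ and treatment.

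Depth varied with the species and the replicate number. Listed reads per library ranged from 159832 to 1293518 in Arabidopsis and from 67985 to 434778 in rice, and replicate 1 had 0.609 to 0.634 times the reads of replicate 2 in all 12 groups. Among values of 1 to 20 reads, 74.0% in Arabidopsis and 80.1% in rice were even, against 49.2% and 49.3% of values of 101 to 1000 reads. Low values thus did not behave as counts of independent reads, and the cause was not tested. The confidence intervals given here cover counting error only and are probably too narrow. Values are RPM, reads scaled by the authors to 1000000 and recovered here from the deposited log2 values, and log2 differences are of RPM + 1, a scale that understates the change of low fragments.

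Among the listed fragments, nearly every 5' read over an encoded first-anticodon A showed G. The tables list only fragments above a minimum level, and the least-read row held 6 reads in Arabidopsis and 47 in rice. Each row is a single sequence, so a base whose reads are spread over several lengths could exceed these numbers and still have no row. No upper limit for A is therefore given where none was listed. Over all tRNAs with a known first anticodon base, whatever its position, 7908 Arabidopsis reads in 13 fragments with 1 mismatch or fewer read G at an encoded A and 80 reads in 2 fragments read A, 99% of the reads. In rice 22452 reads in 13 fragments read G and 95 reads in 1 fragment, of a tRNA-Asp(ATC), read A. Whether those 95 reads also fit another tRNA with 1 mismatch is not stated here, so they are no certain reading of an encoded A. Of the rice G reads, 18923 came from os_tR1 and os_tR3, whose A form could not be counted because no exact 5' fragment of these tRNAs of any length was among the rows used. The remaining 3529 G reads in 10 fragments came from other tRNAs. At the other bases the listed letter prevailed. It was read in 99.78% of Arabidopsis and 99.97% of rice reads at an encoded G, in 99.97% and 100% at C, and in 99.91% and 100% at T. These sums leave out 433 Arabidopsis and 3817 rice reads that fit tRNAs with different first anticodon bases. At A elsewhere in the 5' fragments, the change to G was seen in 66 fragments with 1922 reads in Arabidopsis and in 1 fragment with 78 reads in rice. The only other base read at A34 in the Ala fragments was T, in 1 Arabidopsis fragment with 12 reads. That fragment also aligns with 1 mismatch (A15G or T15G) to tRNA-Ala(TGC), which encodes T at this base, so it is no certain reading of an encoded A. No 3' fragment of either species (2846 and 1722 rows) spanned a first-anticodon A.

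For Arabidopsis tRNA-Ala(AGC), 7150 reads read G and 80 read A, which put the G share at 98.9% (Wilson 95% interval 98.6 to 99.1%). In flower the 2 libraries had G shares of 98.8% and 98.4%, with 20 and 44 reads of A. Stem had 99.22% and 99.01%, stem leaf 99.6% and 99.8%, and rosette leaf 100% and 99.6%. Silique had 100% of 69 reads and 95.2% of 83 reads. All tissues therefore lay close to 100%, and silique, the shallowest at this base, spread most. A difference among the 5 tissues did not pass an exact permutation test over all 945 pairings of libraries (p = 0.695, smallest p it can give 0.00106, 1 site tested). That outcome rested on silique, since the exact permutation test gave p = 0.00317 without silique replicate 1 and 0.019 without replicate 2, and it gave 0.00317 where only fragments ending at base 35 or later were counted.

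The A-reading fragments themselves were seen at very few reads. The 36-nt exact fragment had 16 and 38 reads in flower, 2 and 4 in stem, 2 and 2 in stem leaf, and none in silique and rosette leaf. The 34-nt exact fragment had 4 and 6 reads in flower, 0 and 4 in silique, 0 and 2 in rosette leaf, and none in stem and stem leaf. Scaled for depth, the 36-nt one was highest in flower at 16.6 and 24.7 RPM, while the 34-nt one had 4.14 and 3.91 RPM in flower and 9.53 in silique replicate 2. All 10 of their values above 0 were even.

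For Arabidopsis tRNA-Ser(AGA), 350 reads read G and no A-reading fragment was listed. Silique replicate 1 had no read over the base, so the share was not tested among tissues. In rice tRNA-Ala(AGC), 19164 reads read G and no A-reading fragment was listed, a constant that leaves nothing to test between groups or between root and shoot. For os_tR1 and os_tR3 this was fixed by the rows used. For os_tR2, 7 exact fragments with 11596 reads ended before base 34 and 0 reached it.

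Fragments that carried a second mismatch gave a further reading of base 34 in which exact rows have no part, although a rare A form would have no row here either. They were examined after the values of the first set had been seen. In Arabidopsis Ala, 7 such fragments with 1721 reads covered base 34 and all read G. In Arabidopsis Ser, 14 fragments with 2068 reads all read G. In rice Ala, 9 fragments with 4958 reads all read G. Just outside the rule, then, the base was also read as G in every listed fragment that differed at 1 further base.

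The further base was the same in both species for Ala. It was base 26, encoded as G, which lies where the D stem meets the anticodon stem and is a dimethylated guanosine in many eukaryotic tRNAs. Examples are shown with both changed bases in capitals, G26T and A34G, and, for Ser, C32T and A34G.

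35-nt Ala fragment with 2 changes: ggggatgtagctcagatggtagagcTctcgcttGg

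40-nt Ser fragment with 2 changes: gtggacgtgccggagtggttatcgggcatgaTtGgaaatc

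Among Ala reads with G at base 34, base 26 was changed in 20.01% of 8602 Arabidopsis reads and 20.8% of 23881 rice reads. Arabidopsis at_tR1 and at_tR3 reads that end at base 32 or 33, before the anticodon, had it changed in 21.9% of 1258 reads, and those that end anywhere from base 27 to 33 in 30.5% of 1973. In rice, all 7806 reads that end there were changed, since exact 5' fragments of these tRNAs were not among the rows used. A fragment with both further changes would not have been counted. Tissue means ran from 18.0% to 20.9% in Arabidopsis, and group means in rice from 19.2% to 23.1%. These shares were not tested.

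In Ser reads with G at base 34, base 32 was read as T in 59.8% of 2418 reads (Wilson 57.8 to 61.7%). It was read as A in 134 reads (5.54%) and as G in 45 (1.86%). Base 26, encoded as G in Ser too, was changed in 444 of the 2418 reads (18.4%). Ser reads that end anywhere from base 27 to 33 had base 26 changed in 66.7% of 1844. A C-to-U change at base 32 of this tRNA is known in Arabidopsis, and the cause of the readings here was not tested. The mean share of T was 76.0% ± 0.316 in rosette leaf, 68.1% ± 1.02 in silique and 67.5% ± 0.647 in stem. It was 59.2% ± 4.05 in stem leaf and 49.9% ± 2.69 in flower (SD, n = 2 each). Rosette leaf was highest and flower lowest, and the shares of silique and stem lay within their spread of each other. Of 156 Ser reads that end at base 32 or 33, 31 (19.9%) had this T. These shares were described after seeing the values and were not tested.

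The fragments stopped at set places. Among Arabidopsis Ala(AGC) 5' fragments with up to 3 mismatches, 209 were listed and none exceeded 36 nt. The same held for 105 in rice. Ser fragments reached 40 nt. A 34-nt fragment ends at the first anticodon base, a 36-nt one at the third, and the 40-nt Ser fragment beyond the anticodon loop.

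Arabidopsis tissues differed in which end they held. Fragments ending at base 34 made up 10.65% ± 0.0522 of the at_tR1 and at_tR3 members in flower, 4.50% ± 2.36 in stem leaf, 4.28% ± 2.39 in silique, 3.96% ± 0.248 in rosette leaf and 2.69% ± 0.175 in stem (SD, n = 2 each). Flower lay above every other library, and rosette leaf lay within the range of silique and of stem leaf. The share of all exact and G-reading at_tR1 and at_tR3 5' reads that reached base 34 was 8.97% and 8.88% in flower, 6.13% and 5.89% in rosette leaf, 3.08% and 3.24% in stem leaf, 1.33% and 1.28% in stem, and 0.837% and 0.599% in silique. No tissues overlapped in this share, which is a description and was not tested. Most of the other reads were much shorter, the 20-nt exact fragment alone holding 114587 reads.

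In Arabidopsis, the 3 fragments of at_tR1 and at_tR3 were high in flower and low in silique. Summed over the 8 fragments, flower had 1772 ± 12.6 RPM, stem leaf 1167 ± 35.4, stem 1124 ± 16.7, rosette leaf 1081 ± 56.4 and silique 236 ± 30.8 (SD, n = 2 each). Rosette leaf overlapped stem, and stem leaf lay just above both. In whole organs, fewer cells that hold a fragment and fewer copies per cell cannot be told apart. Of the 8 fragments, 4 differed among tissues by limma's F test over all 5826 fragments, where the background was 33.3% of fragments called. The median range over tissue means was 3.08 on the log2 scale for the 8 fragments and 3.17 for all fragments.

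The 35-nt fragment of at_tR1 and at_tR3 had 885 and 823 RPM in flower, 516 and 564 in stem leaf, 489 and 383 in stem, 404 and 423 in rosette leaf and 120 and 117 in silique. Flower was above and silique below all other libraries, and stem and rosette leaf overlapped. Its tissue means ranged over 2.84 on the log2 scale (limma, adjusted p = 5.55e-06). The 36-nt fragment had 577 and 651 RPM in flower, 555 and 524 in rosette leaf, 443 and 550 in stem, 440 and 518 in stem leaf and 116 and 61.9 in silique. Silique was far below and flower just above all other libraries. It ranged over 2.84 (limma, adjusted p = 9.54e-05).

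The 34-nt fragment, whose last base is the G, had 175 and 175 RPM in flower, 62.8 and 31.5 in stem leaf, 37.7 and 40.8 in rosette leaf, 26.96 and 24.6 in stem and 15.0 and 4.8 in silique. Flower exceeded every other library, and stem leaf and rosette leaf overlapped. It ranged over 4.20 (limma, adjusted p = 0.00403). The 36-nt fragment of at_tR2 had 75.4 and 21.5 RPM in rosette leaf, 32.1 and 28.6 in flower, 17.9 and 20.04 in stem leaf, 11.6 and 9.8 in stem and 0 in both silique libraries. Silique was the lowest and the rosette leaf libraries differed widely. Its range was 5.37 (limma, adjusted p = 0.00247).

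The 40-nt Ser fragment had 143 and 120 RPM in stem, 61.1 and 54.0 in flower, 62.8 and 34.3 in stem leaf, 6.9 and 21.5 in rosette leaf and 0 and 26.2 in silique. Stem was above all other tissues, an order unlike that of the Ala fragments. It did not pass (limma, adjusted p = 0.0631), but did with the replicate number as a block (limma, adjusted p = 0.0412), with a pseudocount of 5 (0.00846) and with a mean of at least 10 RPM required (0.0441). Without silique replicate 1, at 0, its limma adjusted p was 0.0214, and without silique replicate 2 it was 0.0013. The 35-nt at_tR2 fragment lay between 4.8 and 41.1 RPM (limma, adjusted p = 0.312), and the 35-nt and 36-nt Ser fragments did not pass (limma, adjusted p = 0.286 and 0.181).

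In rice, panicle held the most and salt-treated root the least of these fragments. The 6 fragments summed to 702 ± 23.9 RPM in panicle, 304 ± 22.2 in root cold, 211 ± 0.873 in root salt, 284 ± 3.71 in root control, 386 ± 0.455 in shoot cold, 430 ± 37.1 in shoot salt and 357 ± 32.2 in shoot control (SD, n = 2 each). By the F test over 7 groups, 4 of the 6 passed, against a background of 80.3% of 2794 fragments. The 4 were the 35-nt fragment (limma, adjusted p = 1.42e-11), the 36-nt (7.39e-08) and the 34-nt (4.92e-06) of os_tR1 and os_tR3, and the 35-nt of os_tR2 (0.00022).

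The 34-nt rice fragment varied least. It had 176 and 198 RPM in root cold, 126 and 125 in root salt, 223 and 210 in root control, 174 and 168 in shoot cold, 174 and 186 in shoot salt, 143 and 174 in shoot control and 264 and 247 in panicle. Panicle was highest and root salt lowest, with no overlap with any other group. The 35-nt fragment had 82.2 and 85.3 RPM in root cold, 45.3 and 47.0 in root salt, 46.0 and 55.5 in root control, 156 and 143 in shoot cold, 132 and 155 in shoot salt, 98.8 and 118 in shoot control and 363 and 361 in panicle. Every root library was below every shoot library, and every shoot library below panicle. The 36-nt fragment had 27.7 and 31.3 RPM in root cold, 39.1 and 36.6 in root salt, 9.6 and 18.4 in root control, 53.3 and 71.1 in shoot cold, 88.2 and 101 in shoot salt, 84.3 and 81.0 in shoot control and 81.0 and 70.0 in panicle. Here panicle lay within the shoot range, and root control was lowest. The os_tR2 fragments did not exceed 6.9 RPM in any library.

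The ends of the rice fragments separated root from shoot. Of the reads of the 3 os_tR1 and os_tR3 fragments, 62.2% ± 0.979 ended at base 34 in root cold, 59.9% ± 0.127 in root salt and 77.0% ± 4.27 in root control. In shoot cold 44.7% ± 0.917 did, in shoot salt 43.1% ± 1.48, in shoot control 45.2% ± 1.91, and in panicle 36.9% ± 0.632 (SD, n = 2 each). The 6 root libraries lay between 59.8% and 80.0% and the 6 shoot libraries between 42.1% and 46.6%, without overlap. Both stressed root groups were below root control, while the 3 shoot groups overlapped. The share was described after seeing the values and was not tested.

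Root and shoot differed by fragment length without stress. In root control against shoot control, 1 fragment was higher and 4 were lower, where the background was 21.9% of all fragments higher and 27.5% lower. The 34-nt fragment of os_tR1 and os_tR3 was higher in root by 0.45 ± 0.107 on the log2 scale (SE; limma, adjusted p = 0.00192). The 35-nt fragment fell by 1.08 ± 0.137 (limma, adjusted p = 2.93e-06) and the 36-nt fragment by 2.55 ± 0.238 (limma, adjusted p = 5.62e-08). The difference thus changed sign between ends only 1 base apart. The 35-nt and 36-nt os_tR2 fragments were lower by log2 differences of -1.50 ± 0.497 and -1.43 ± 0.57 (limma, adjusted p = 0.019 and 0.046). The 35-nt call was lost without root control replicate 1 (-1.24, limma adjusted p = 0.127) or shoot control replicate 1 (-1.19, limma adjusted p = 0.121). The 36-nt one was lost when any of 8 libraries was left out, among them root control replicate 1 (-1.07, limma adjusted p = 0.25), with a pseudocount of 0.5 (limma, adjusted p = 0.0515) and with libraries shifted to the same median (limma, adjusted p = 0.0972). The median over the 6 fragments was -1.26, against -0.22 over all fragments, and shifting libraries to the same median adds 0.246 to every difference.

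Cold was tested in each organ. In root cold against root control, 2 fragments were higher and 0 lower, where 5.87% of all fragments were higher and 3.51% lower, and the same number, 2, passed at an unadjusted p under 0.05. The 35-nt fragment rose by 0.72 ± 0.137 (limma, adjusted p = 0.0018). The 36-nt fragment rose by 1.09 ± 0.238 (limma, adjusted p = 0.00569), a call lost without root cold replicate 2 (limma, adjusted p = 0.0801) or root control replicate 1 (0.65, limma adjusted p = 0.129). The 34-nt fragment had a difference of -0.21 ± 0.107 that did not pass (limma, adjusted p = 0.271). The root libraries did not overlap between cold and control for any of these 3, which with 2 libraries per group is no test. The share of all fragments without such overlap was not counted.

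In shoot cold against shoot control, 1 fragment was higher and 0 lower, against 9.99% higher and 5.12% lower over all fragments, and 2 passed at an unadjusted p under 0.05. The 35-nt fragment rose by 0.46 ± 0.137 (limma, adjusted p = 0.0276). That call did not hold without shoot cold replicate 1 (limma, adjusted p = 0.161), without replicate 2 (0.054), without shoot control replicate 1 (0.228) or with libraries shifted to the same median (0.29, limma adjusted p = 0.153). The 36-nt fragment had -0.42 ± 0.238 (limma, adjusted p = 0.255). Its shoot cold values of 53.3 and 71.1 RPM were below the shoot control values of 84.3 and 81.0. The 35-nt os_tR2 fragment went down, with means of 0.302 RPM in shoot cold and 2.45 in shoot control. That fragment was not called in the main fit but was called lower with libraries shifted to the same median (-1.58, limma adjusted p = 0.0386).

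Under salt in root, the 34-nt and 36-nt fragments, both of os_tR1 and os_tR3, moved in opposite directions. In root salt against root control, 1 fragment was higher and 1 lower, against 4.94% and 5.65% over all fragments. The 34-nt fragment fell by 0.78 ± 0.107 (limma, adjusted p = 4.38e-05) and the 36-nt fragment rose by 1.44 ± 0.238 (limma, adjusted p = 0.000352). Both kept the call whichever library was left out. The 35-nt fragment between them had -0.13 ± 0.137 (limma, adjusted p = 0.688). In shoot salt against shoot control, 1 fragment was higher and 0 lower, against 17.4% higher and 13.8% lower, and 2 passed at an unadjusted p under 0.05. The 35-nt fragment rose by 0.40 ± 0.137 (limma, adjusted p = 0.0345), lost with libraries shifted to the same median (0.10, limma adjusted p = 0.607), without shoot salt replicate 2 (0.28, adjusted p = 0.173), without shoot control replicate 1 (0.27, adjusted p = 0.256) and without either panicle library (adjusted p = 0.0539 and 0.0537). The 34-nt and 36-nt fragments had 0.19 ± 0.107 and 0.19 ± 0.238 in shoot, and neither passed (limma, adjusted p = 0.2 and 0.583). The 35-nt os_tR2 fragment had means of 6.81 RPM in shoot salt and 2.45 in shoot control. That fragment was not called in the main fit but was called higher with a pseudocount of 5 (0.67, limma adjusted p = 0.0146). The stress comparisons of an organ share their control libraries, so their values are not independent of each other.

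The effect of stress differed between root and shoot for 2 of the fragments, by limma contrasts added after the organ-wise values had been seen. For salt, the root effect minus the shoot effect was -0.97 ± 0.151 for the 34-nt fragment (limma, adjusted p = 2e-04) and 1.25 ± 0.336 for the 36-nt fragment (limma, adjusted p = 0.0153), so that 1 of the 6 was higher and 1 lower, against 7.09% and 9.63% of all fragments. The 36-nt call was lost without root salt replicate 1 (limma, adjusted p = 0.0556) or root control replicate 1 (0.81, limma adjusted p = 0.0802). For cold, the 36-nt fragment had a difference of 1.51 ± 0.336 (limma, adjusted p = 0.00682), the 1 fragment called higher, with 0 lower and 3 past an unadjusted p of 0.05, against 4.29% higher and 5.26% lower over all fragments.

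Fragments that read G at a first-anticodon A of other tRNAs, where that base is not base 34, resembled the set in kind. In Arabidopsis they were 7 of tRNA-Thr(AGT) with 677 reads and 3 of tRNA-Pro(AGG) with 152. In rice they were 14 rows with 13 distinct sequences, namely 7 rows of Thr(AGT) with 4794 reads, 6 of Pro(AGG) with 2229 and 1 of Arg(ACG) or Cys(ACA) with 82. The Arg or Cys row aligns equally to os_tR12, an Arg(ACG) with organelle and nuclear loci, so a cytosolic origin of this row is not certain. The Pro fragments also align with 1 mismatch to Pro tRNAs with another first anticodon base where they come from at_tR147 and at_tR149 or from os_tR204, os_tR206 and os_tR207. Of the rice Thr rows, 4 with 2014 reads also align with 1 mismatch (T10G) to a tRNA-Thr(GGT), which encodes G at this base, so they are no certain reading of an encoded A. One of each is shown, with the G in capitals, A33G in Pro and A35G in Thr.

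33-nt Pro(AGG) fragment, both species: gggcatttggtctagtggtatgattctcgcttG

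35-nt Thr(AGT) fragment, Arabidopsis at_tR190 and at_tR192, rice os_tR253: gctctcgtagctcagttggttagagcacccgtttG

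By limma's F test, 4 of the 10 Arabidopsis fragments differed among tissues, where 33.3% of all fragments did, and 14 of the 14 rice rows differed among groups, where 80.3% did. In root control against shoot control, 1 of these 14 rows was higher and 5 were lower. Cold gave 0 higher and 0 lower in root (1 higher and 0 lower at an unadjusted p under 0.05) and 3 higher and 0 lower in shoot (6 and 0 unadjusted). Salt gave 0 higher and 1 lower in root (0 and 2 unadjusted) and 5 higher and 0 lower in shoot (7 and 0 unadjusted). The root effect minus the shoot effect was called higher in 0 rows and lower in 3 for cold (0 and 4 unadjusted), and higher in 0 and lower in 2 for salt (0 and 4 unadjusted). The shares of all fragments called are as printed for the Ala fragments in each comparison. Families with an A at this base but no listed 5' fragment over it, such as nuclear Arg(ACG) in Arabidopsis, whose longest listed 5' fragment was 25 nt, gave no reading of the base.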

How the data were processed

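Small RNA of pretreated total RNA was sequenced in 24 libraries of 12 groups. The authors deposited a log2 value per fragment and library, which per the file headers and the values is log2(RPM + 1); the submitters' processing notes name cutadapt and TAIR10, and the sources used here name no mapper. All values came out as whole reads (tolerance 0.05), so log2 values were turned back to RPM and reads. Fragments with a mean of at least 1 RPM were tested with limma 3.58.1 (R 4.3.3, trend) on log2(RPM + 1), pseudocount 1, 1 mean per group, Benjamini-Hochberg over all fragments of a species, threshold 0.05. A count test had been planned only for raw counts. G shares were tested by exact permutation over libraries (two-sided where a direction exists; Python 3.11.15, scipy 1.17.1), with a minimum mean of 10 reads over the base. The limma script was tested on simulated data.

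Named are the most abundant member of each site with its exact counterpart, and up to 3 called members in each direction per contrast; every site with a member is described. Members and lists were chosen with earlier results of these data known. Replicate numbers come from the sample titles. Deviations of same-numbered libraries correlated in all pairs of groups. The r ran from 0.144 to 0.319 in Arabidopsis (10 pairs, 2187 fragments) and from 0.204 to 0.436 in rice (21 pairs, 806 fragments). Replicate 1 also had fewer reads than replicate 2 in every group, so pairing and depth cannot be told apart. The planned fit without a block was therefore set beside one with the replicate number as a block. Replicates of a group differed by more than the sampling of independent reads gives (chi-square per degree of freedom 2.58 to 3.37). Low values did not behave as counts of independent reads, so this value is no clean measure of the spread between replicates. Alternatives were pseudocounts, filters, equal medians, the replicate block and leaving out each library. Listed starts of Arabidopsis loci count from 0 and were shifted by 1.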

Additional observations from a re-analysis of the deposited data

Results flagged for a closer look

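The tested differences between organs in the effect of stress drew attention to 2 rice fragments of tRNA-Ala(AGC) with A34G. For the 36-nt fragment, the cold effect was 1.09 on the log2 scale in root and -0.42 in shoot, a difference of 1.51 ± 0.336 (SE; limma, adjusted p = 0.00682). Root cold libraries had 27.7 and 31.3 RPM, against 9.6 and 18.4 in root control. Shoot cold libraries had 53.3 and 71.1 RPM, against 84.3 and 81.0 in shoot control. The salt effect on the same fragment was 1.44 in root and 0.19 in shoot, a difference of 1.25 ± 0.336 (limma, adjusted p = 0.0153), which was lost without root salt replicate 1 or root control replicate 1. For the 34-nt fragment, the salt effect was -0.78 in root and 0.19 in shoot, a difference of -0.97 ± 0.151 (limma, adjusted p = 2e-04). These contrasts share their control libraries, and root control replicate 1 holds the lowest value of the 36-nt fragment in both of its differences.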

How the results depend on the processing

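With a mean of at least 10 RPM required, fewer rice fragments were tested than the 2794 at a mean of 1 RPM. Calls then numbered 787 among rice groups, 606 for root against shoot (2 members lower) and 476 for salt in shoot. With all 2794 tested they numbered 2244, 1382 and 873. Because fewer fragments were tested, the lower counts do not show that a smaller share was called. The os_tR2 members, at means of 1.863, 2.372 and 1.199 RPM, were below this filter and could not be called. In the salt difference between organs, 2 members were then lower. With libraries shifted to the same median, cold in shoot had 0 members higher and 1 lower and salt in shoot 0 higher; a pseudocount of 5 gave 2 higher. The G share gave an exact permutation p of 0.00317 for fragments ending at base 35 or later. Locating the base by the anticodon after a T raised the members to 18 in Arabidopsis and 20 in rice.

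Leaving out each library in turn, calls ranged from 1273 (without flower replicate 1) to 2018 among tissues, 261 to 636 for cold in shoot, 127 to 372 for cold in root, 574 to 984 for salt in shoot, 166 to 407 for salt in root and 161 to 422 for the cold difference between organs. Members ranged from 2 to 4 lower in root against shoot, 0 to 1 higher and 0 to 1 lower for cold in shoot, 1 to 2 higher for cold in root, 0 to 1 higher for salt in shoot, and 0 to 1 higher and 1 to 3 lower for the salt difference. The G share's exact permutation p ranged from 0.00317 to 0.862. A library left alone in its group was assumed to vary like the others. The cause of these changes was not tested.

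The replicate block changed no call but the 40-nt Ser fragment (adjusted p = 0.0412, limma), and gave the G share an exact permutation p of 0.6. No call of a named fragment reversed its direction under any alternative run, and differences that had not passed were not checked for direction. With all libraries in, 300 values of named fragments kept their side of the threshold, 6 gained and 4 lost the call. Rice G shares stayed at 100%, with no test. Shallow reading of base 34 in silique (69 and 83 reads) limits its G share, and with the even-number excess at low reads the intervals are probably too narrow.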

Other observations

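The 1 rice fragment that read A at a first-anticodon A matched os_tR50, listed as a tRNA-Asp(ATC), and held 95 reads. This tRNA has 1 listed locus, yet exact 5' fragments that end before the base held 116036 reads. Whether the 95 reads also fit another tRNA with 1 mismatch is not stated here, so they are no certain reading of an encoded A. For tRNA-Val(AAC), whose first anticodon base is base 35, the 5' fragments over that base were listed in both species with G there and with a second change at base 27, G27A or G27T. In Arabidopsis the 37-nt fragment with A35G and G27A had 97 reads, the 36-nt fragment 35 and the 37-nt fragment with G27T 32. In rice the same kinds of 37-nt fragment had 377 and 113 reads, and the 36-nt and 35-nt fragments with G27A had 111 and 76. The Arabidopsis and rice forms of the largest are shown with the changed bases in capitals.

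37-nt Val fragment, Arabidopsis: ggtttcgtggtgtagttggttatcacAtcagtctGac

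37-nt Val fragment, rice: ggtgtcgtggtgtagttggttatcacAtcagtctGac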
